A study of Mus musculus with 6 samples.

Results

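Nucleoporins, the subunits of the nuclear pore complex, and the receptors that carry proteins and RNA through it were examined in the ureteric epithelium of the embryonic mouse kidney, the branching tree that grows from its tips and forms the collecting ducts from its stalks. Members were taken by symbol: names that begin with Nup, Ipo, Xpo or Tnpo followed by a digit or with Kpna or Kpnb, and Tpr, Rae1, Seh1l, Sec13, Aaas, Pom121, Ndc1, Ran and Rcc1. Of 21456 gene symbols with values, 50 were members. The rule uses symbols and no measured values. Kpna7 had question marks in place of values, and no value stood under the symbol Ndc1.

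Tip and stalk cells came from developing kidneys of the CFW strain at embryonic stage E16.5, with 3 libraries per group. Tip cells carried both a red reporter under Wnt11, which is transcribed in the tips, and a green one under Hoxb7, which marks the whole ureteric epithelium (Wnt11RFP+;Hoxb7GFP+). Stalk cells carried the Hoxb7 reporter without the Wnt11 reporter, and no other allele or agent is given in the labels. Whether the libraries came from separate animals is not stated, so p-values describe no more than how these samples spread, which may be technical. Values are RPKM, read counts divided by transcript length and by library size, as the authors deposited them. The sequencing depth is unknown. A gene was called when its adjusted p in limma, with the Benjamini-Hochberg method over all 12532 genes whose mean over the 6 libraries reached 1 RPKM, was below 0.05. Fold changes are tip minus stalk of log2(RPKM + 1), a scale that understates the change of low genes.

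The nuclear pore is a ring-shaped channel through the nuclear envelope. Its outer and inner rings form the scaffold, membrane nucleoporins anchor it, and subunits with phenylalanine-glycine repeats fill the channel. Importins bind cargo in the cytoplasm and exportins bind it in the nucleus. The small GTPase Ran, loaded with GTP in the nucleus by its exchange factor Rcc1, releases import cargo and loads export cargo. Several of these proteins, among them Ran, Rcc1, Kpnb1 and outer ring subunits, also act in mitosis, after the pore is taken apart.

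The labels were checked against defining genes. All 5 tip markers listed were called higher in tip, and all 5 stalk markers higher in stalk. Wnt11 is among the tip markers, and its reporter defined the tip cells, so its call is no independent check. Of 6 markers of the whole ureteric epithelium, Gata3, Cdh1 and Wnt9b were called higher in stalk, and the other 3 were not called. Nephron progenitor markers summed to 2.93 ± 0.29 RPKM in tip against 1.78 ± 0.60 RPKM in stalk (SD, n = 3), and the 1 tested, Cited1, was called higher in tip (0.82, limma adjusted p = 0.00727). Stroma markers summed to at most 5.10 RPKM in any library. Erythroid markers summed to 18.0, 12.4 and 72.4 RPKM in tip libraries 1 to 3. In stalk libraries 1 to 3 they summed to 8.86, 83.8 and 23.3 RPKM, and the 2 tested were not called. Of 3 tested immune markers, Cd68 was called higher in tip and Laptm5 higher in stalk. Of 11 tested endothelial markers, 10 were called higher in stalk, with sums of 36.5 to 39.1 RPKM in tip against 80.4 to 128 RPKM in stalk. Of 16 immediate early and heat shock genes, 8 were called higher in stalk and 0 in tip. The shares over all genes tested were 22.5% called higher in stalk and 26.1% higher in tip. Eng was the endothelial marker called higher in tip. Listed DNA replication genes (23 of 23) and mitosis genes (20 of 20) were all called higher in tip. DNA replication genes summed to 858, 696 and 812 RPKM in tip libraries 1 to 3 and to 244, 251 and 298 RPKM in stalk libraries 1 to 3. The part of any of these lists in the pore and transport genes' difference was not tested. In bulk samples like these, fewer cells of a type and less RNA per cell cannot be told apart.

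Most pore and transport genes were higher in tip cells. Of the 50 members, 48 passed the filter on low values, and Nup210l, with a mean of 0.358 RPKM, and Nup62cl, with 0.157 RPKM, did not. Among the 48, 36 were called higher in tip, 12 were not called, and 0 were called higher in stalk. Over all genes tested, 26.1% were called higher in tip, and the stalk was higher in 22.5%. The median fold change was 0.57 among the members and 0.05 among all genes. It was positive for 45 of the 48 members and for 53.0% of all genes. In 38 members all tip libraries lay above all stalk libraries, an order found in 31.3% of genes. The opposite order occurred in 1 member, Kpna6, against 26.5% of genes.

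**Figure D1:**
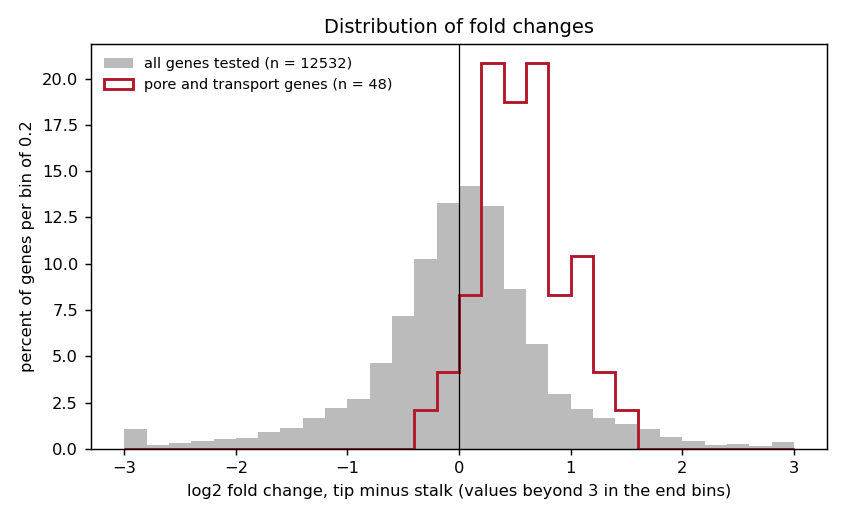
Percent of genes (y axis) by log2 fold change of RPKM + 1, tip minus stalk, in bins of 0.2 (x axis, values beyond 3 in the end bins), for all 12532 genes tested (grey) and the 48 members tested (red outline). Of the members, 45 lie to the right of 0 and 3 to the left, with a median of 0.57 against 0.05 for all genes, and their distribution has neither of the wide tails of all genes.

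The changes were moderate in size. Fold changes of the members ranged from -0.25 to 1.40. Those of all genes ranged from -7.96 to 6.20, but a range widens with the number of genes. A fold change of at least 1 together with a call higher in tip was found in 8 members, which is 16.7% of those tested, against 8.24% of all genes. Among called genes of either direction, the median absolute fold change was 0.67 for members and 0.76 for all genes. Summed over all members, tip libraries held 1258, 1153 and 1171 RPKM and stalk libraries 767, 749 and 789 RPKM. The tip sum was 1.55 times the stalk sum, and every tip library lay above every stalk library.

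**Figure D2:**
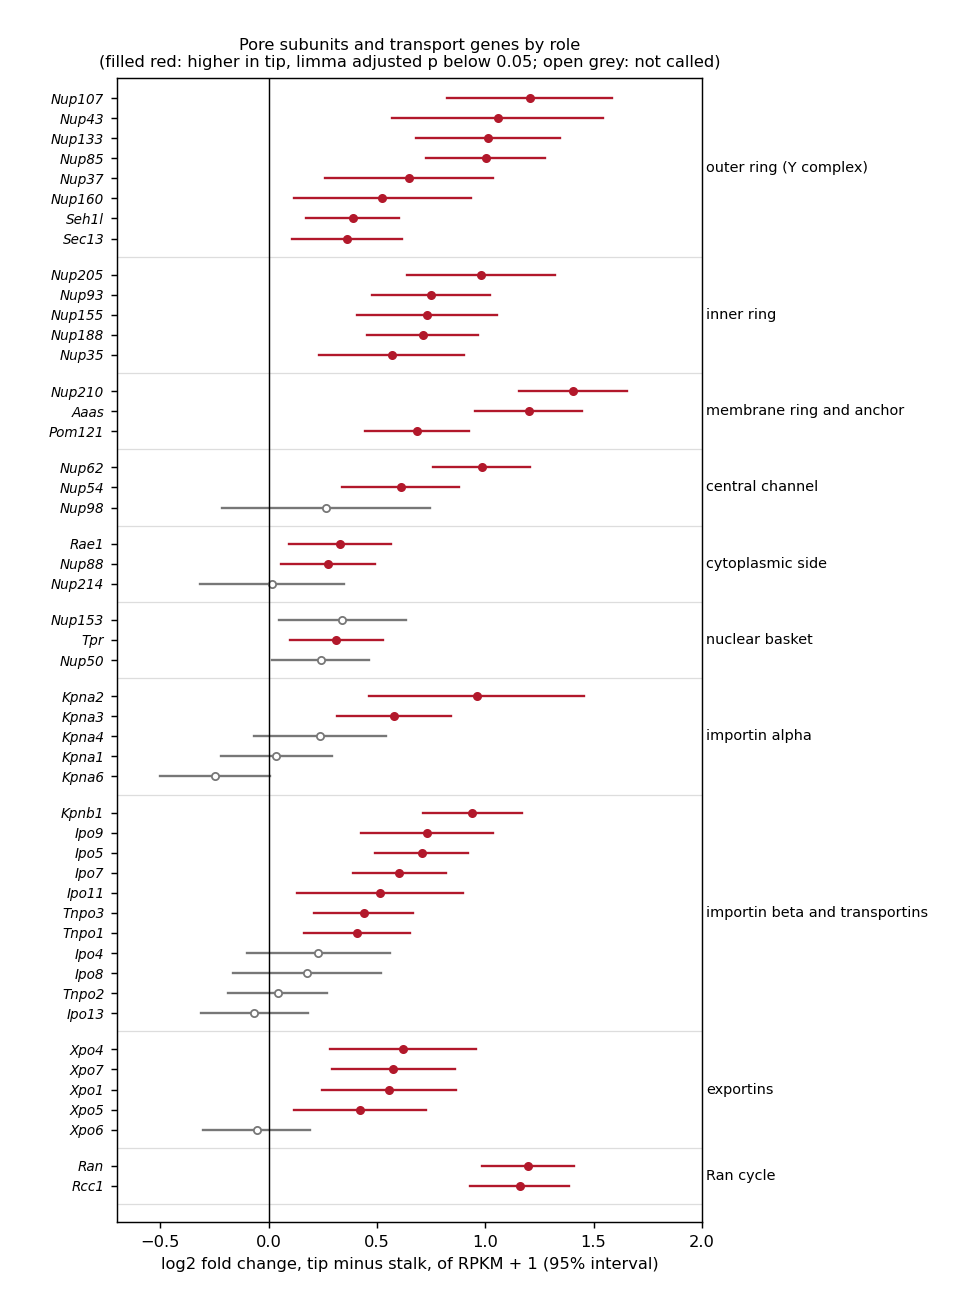
Log2 fold change of RPKM + 1, tip minus stalk (x axis), of the 48 tested members with 95% intervals from limma, grouped by role (right). Filled red points were called higher in tip and open grey points were not called. Both ring groups, the membrane group and the Ran cycle hold filled points alone, and the importin alpha genes spread from -0.25 (Kpna6) to 0.96 (Kpna2).

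The stretches just before the start sites of selected members are shown as the sequence context of these changes. RefSeq windows of 300 bases, from 250 before to 50 after the start (GRCm38.p6), were matched for 40 of the 50 members, 47 windows in all. Cell cycle genes often carry binding words of E2F factors near their starts, so each of the words TTCCCGC or TTGGCGC or TTCGCGC was searched on both strands. They stand in capitals in the 100 bases before the start, printed 5′ to 3′ on the gene's strand. The first 4 genes were called higher in tip and have a word. As all 4 share both, the printed stretches cannot show a link between call and word. Of the 34 whole windows of members called higher in tip, 8 hold a word. Kpnb1 has the highest level of all members as listed and was called higher in tip without one, and Xpo6 was not called. The stretches lie at chr6:91116827-91116926 (Nup210, minus strand), chr10:117792706-117792805 (Nup107, minus), chr4:132345751-132345850 (Rcc1, minus), chr13:98926385-98926484 (Tnpo1, minus), chr11:97187893-97187992 (Kpnb1, minus) and chr7:126200502-126200601 (Xpo6, minus).
Nup210: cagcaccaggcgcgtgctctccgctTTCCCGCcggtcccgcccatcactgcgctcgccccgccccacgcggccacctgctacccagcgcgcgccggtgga
Nup107: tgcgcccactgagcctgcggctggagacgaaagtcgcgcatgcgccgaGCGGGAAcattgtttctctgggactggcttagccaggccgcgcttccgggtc
Rcc1: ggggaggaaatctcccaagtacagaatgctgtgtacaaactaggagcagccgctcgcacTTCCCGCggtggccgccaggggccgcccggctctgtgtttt
Tnpo1: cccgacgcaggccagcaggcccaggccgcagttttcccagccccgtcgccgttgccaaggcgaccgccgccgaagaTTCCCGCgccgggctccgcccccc
Kpnb1: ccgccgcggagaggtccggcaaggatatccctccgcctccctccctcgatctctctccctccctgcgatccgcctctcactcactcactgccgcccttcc
Xpo6: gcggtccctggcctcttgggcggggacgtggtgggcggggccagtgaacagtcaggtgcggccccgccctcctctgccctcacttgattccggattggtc
The Rcc1 stretch lies inside the longer gene body that GENCODE M21 gives, and Tnpo1 has another RefSeq start without a word before it.

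An E2F word stood in 8 of the 47 member windows (17.0%), those of Nup210, Nup107, Aaas, Rcc1, Nup133, Nup188, Ipo7 and Tnpo1. All 8 genes were called higher in tip, which makes 23.5% of the 34 windows of members called higher in tip and 0 of the 12 windows of members not called. The share was 14.7% over windows of all tested genes, 20.0% over those of genes called higher in tip, 13.9% over those of genes not called, and 8.07% over all 32851 windows. The members' share was thus near that of other genes called higher in tip. The GC box GGGCGG, which TTCCCGC can overlap at its last letters, stood in 66.0% of member windows and 64.3% of tested gene windows. CCAAT stood in 48.9% and 37.8%, the ETS word CCGGAAG in 21.3% and 17.6%, and the NRF1 word GCATGCG in 12.8% and 6.45%, respectively. The CHR word TTTGAA stood in 23.4% and 11.6%, and the YY1 word ATGGCGG in 10.6% and 8.11%. The E-box CACGTG stood in 14.9% and 10.1%, and TATAAA in 8.51% and 6.79%. CHR stood in 23.5% of windows of members called higher in tip and 25% of those not called. For ETS these shares were 26.5% and 8.33%. Member windows had a median GC content of 64%, against 61.3% over tested genes. A match is a description of the letters only.

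All 8 subunits of the outer ring, or Y complex, were called higher in tip, with a median fold change of 0.82. The calls of Nup160, Sec13 and Nup37 were lost under 7, 6 and 1 of 16 other settings. Nup107, a core subunit of the Y (mm10, chr10:117750621-117792705), measured 21.4, 16.0 and 17.2 RPKM in tip libraries 1 to 3 and 6.19, 6.76 and 9.13 RPKM in stalk libraries 1 to 3. The groups did not overlap, and stalk library 3 came nearest to the tip libraries. Its mean was 18.2 ± 2.85 RPKM in tip against 7.36 ± 1.56 RPKM in stalk (SD, n = 3), a 2.47-fold ratio and a fold change of 1.20 ± 0.17 (SE, limma adjusted p = 0.000544). Nup43 and Nup133, further subunits of the same complex, rose by 1.06 and 1.01, and Nup85 rose 2.07-fold, from 17.0 ± 1.32 RPKM in stalk to 35.2 ± 4.36 RPKM in tip (SD, n = 3). Nup37 and Nup160 followed with 0.65 and 0.52.

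The smallest outer ring changes belonged to Seh1l, with 0.39, and Sec13, with 0.36. Both proteins also serve outside the pore: Sec13 coats the vesicles that leave the endoplasmic reticulum, and both sit in the GATOR complex that regulates mTORC1. Sec13 had the highest level of the group, with 51.5, 59.2 and 52.4 RPKM in tip against 42.4, 37.5 and 46.6 RPKM in stalk. Its groups did not overlap, stalk library 3 came nearest to the tip libraries, and the adjusted p in limma was 0.0255.

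All 5 inner ring subunits were called higher in tip, with a median fold change of 0.73. Nup205, a large scaffold protein of this ring, changed most, with 23.4, 17.7 and 18.8 RPKM in tip against 8.98, 8.53 and 11.4 RPKM in stalk (fold change 0.98 ± 0.15 SE, limma adjusted p = 0.000923). Nup93, which links scaffold and channel subunits and had the group's highest level, measured 31.2, 27.9 and 28.9 RPKM in tip against 17.3, 14.8 and 19.3 RPKM in stalk. Neither gene's groups overlapped. Nup155, Nup188 and Nup35 rose by 0.73, 0.71 and 0.57. Over both rings, 13 of 13 subunits were called higher in tip, against 26.1% of all genes.

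Membrane and anchoring nucleoporins held the largest change of all members on the log2(RPKM + 1) scale, while by the ratio of means Kpna2, at 2.91-fold, was above it. Nup210, a transmembrane glycoprotein of the pore that is known for its uneven expression between cell types (mm10, chr6:91013068-91116829), measured 31.9, 29.4 and 26.8 RPKM in tip against 10.2, 9.89 and 11.2 RPKM in stalk. Every tip library lay far above the stalk libraries, which differed little among themselves. The mean was 29.4 ± 2.57 RPKM in tip against 10.5 ± 0.71 RPKM in stalk (SD, n = 3), a 2.81-fold ratio and a fold change of 1.40 ± 0.11 (SE, limma adjusted p = 3.03e-05). Aaas, the protein lost in triple A syndrome, which is held at the pore by Ndc1, rose by 1.20. Pom121, another transmembrane subunit, measured 26.8, 26.9 and 23.2 RPKM in tip against 15.2, 16.54 and 14.9 RPKM in stalk, without overlap (0.68). Its exons share 665 bases with those of Nsun5 on the opposite strand, and the sources used here do not say whether counting used the strand. The third transmembrane nucleoporin, Ndc1, is listed under its older symbol Tmem48, a gene looked up after values were seen and not counted here, at 17.0 ± 1.80 RPKM in tip against 6.25 ± 0.70 RPKM in stalk (SD, n = 3).

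In the central channel, Nup62, whose repeats form part of the permeability barrier, was called higher in tip. It measured 36.5, 31.9 and 35.4 RPKM in tip against 17.7, 16.3 and 16.9 RPKM in stalk (0.98 ± 0.10 SE, limma adjusted p = 9.85e-05). The groups stood far apart next to the spread within each. Nup54, its partner in the channel, rose by 0.61. Nup98, which lines the channel and also acts on chromatin, was not called, with a fold change of 0.26 and a 95% interval from -0.21 to 0.74. Its stalk library 1, at 15.9 RPKM, lay above tip libraries 1 and 3.

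The 6 tested subunits on the faces of the pore had fold changes between 0.02 and 0.34. On the cytoplasmic side, Rae1, an mRNA export factor that also takes part in spindle assembly, measured 31.5, 27.1 and 27.5 RPKM in tip against 22.2, 24.1 and 21.5 RPKM in stalk (0.33, limma adjusted p = 0.0277). Nup88, which binds Nup214 and Nup98, measured 36.7, 34.0 and 36.3 RPKM in tip against 27.5, 31.5 and 29.2 RPKM in stalk. Its groups did not overlap, but at 0.27 (limma adjusted p = 0.0414) it was the called member nearest to the threshold. Nup214, the docking site of export complexes, was close to even, with 9.98 ± 1.59 RPKM in tip against 9.81 ± 1.06 RPKM in stalk (SD, n = 3) and an interval of the fold change from -0.32 to 0.35.

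In the nuclear basket, Tpr, its long filament protein, measured 30.7, 28.3 and 29.3 RPKM in tip against 23.6, 24.7 and 22.2 RPKM in stalk. This was a fold change of 0.31 (limma adjusted p = 0.0236), and all tip libraries lay above the stalk libraries. Nup153, which holds the basket to the pore, measured 33.6, 32.1 and 26.3 RPKM in tip against 25.1, 21.0 and 25.8 RPKM in stalk. Tip library 3 nearly touched stalk library 3, and Nup153 was not called at an adjusted p of 0.0561 in limma, the nearest value outside the threshold. Nup50, a mobile basket subunit, was not called either, with 0.24 and an adjusted p of 0.0733.

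Taking the pore subunits as one group, 21 of 25 tested were called higher in tip, with a median fold change of 0.65. Pore subunits listed under symbols outside the naming rule are not in this count. Among these, Ahctf1 was called higher in tip (0.44), while Nupl1 (0.21), Nupl2 (0.31) and Ranbp2 (-0.10) were not called. Of the 21 import and export receptors, 13 were called higher in tip, with a median of 0.44. Whether these 2 groups differ was not tested.

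Importin alpha genes, the adaptors that read the classical nuclear localization signal, differed in their calls: 2 of 5 were called higher in tip and 3 were not called. The share of all genes called higher in tip was 26.1%, and 5 genes are too few to compare with it. Kpna2, an importin alpha that is abundant in embryonic and dividing cells, measured 3.05, 2.06 and 4.38 RPKM in tip against 1.06, 1.20 and 0.998 RPKM in stalk (0.96 ± 0.22 SE, limma adjusted p = 0.00684). Every tip library lay above the stalk libraries, and the tip libraries differed among themselves by more than the stalk mean. Kpna3 measured 15.6, 12.8 and 15.3 RPKM in tip against 9.16, 9.49 and 9.55 RPKM in stalk, a rise of 0.58.

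The other importin alpha genes were not called. Kpna1 measured 13.4, 11.8 and 11.3 RPKM in tip against 12.4, 11.1 and 11.9 RPKM in stalk. Kpna4 measured 12.7, 13.4 and 11.3 RPKM in tip against 12.3, 9.54 and 9.58 RPKM in stalk. In both genes the groups overlapped, and the intervals of the fold change ran from -0.22 to 0.29 for Kpna1 and from -0.07 to 0.54 for Kpna4. Kpna6 was the member with the lowest fold change, -0.25, at 9.04 ± 0.34 RPKM in tip against 11.0 ± 0.83 RPKM in stalk (SD, n = 3). Its 3 stalk libraries lay above its 3 tip libraries, but its adjusted p in limma was 0.0949.

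As shares of the summed importin alpha RPKM, Kpna3 made up 28.3% in tip and 21.5% in stalk, and Kpna2 6.13% and 2.49%. Kpna6 made up 17.6% in tip and 25.1% in stalk, Kpna1 23.6% and 27.0%, and Kpna4 24.3% and 23.9%. These shares hold for the symbols as listed and depend on how reads of Kpna2 were assigned. GENCODE M21 has 6 other genes whose transcripts match Kpna2 over at least 300 bases at 95% identity or more. The closest, Gm10184, matches over 1968 bases at 99.9%. Gm10184 was listed at 65.5, 42.5 and 70.9 RPKM in tip against 21.5, 24.8 and 23.2 RPKM in stalk, far above Kpna2 itself. With the listed copies added to Kpna2, an alternative chosen after seeing the data, Kpna2 measured 65.4 ± 17.8 RPKM in tip against 26.2 ± 1.96 RPKM in stalk (SD, n = 3; fold change 1.25). Its share then became 56.8% in tip and 38.1% in stalk, that of Kpna3 12.9% and 13.6%, and that of Kpna6 8.09% and 15.9%. Kpna2 thus ranked last or first among the importin alpha genes by this choice, while its share was higher in tip and that of Kpna6 higher in stalk either way.

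**Figure D3:**
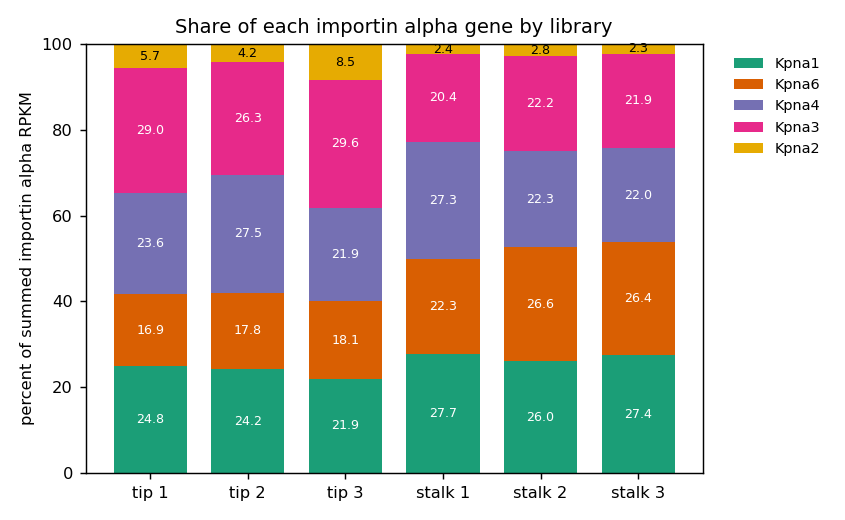
Percent of the summed importin alpha RPKM (y axis) given by each of 5 Kpna genes in each of the 6 libraries (x axis), with each symbol taken as listed and near-identical copies of Kpna2 left out. Kpna2 and Kpna3 take larger shares and Kpna6 smaller shares in the 3 tip libraries than in the 3 stalk libraries.

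Near-identical copies bear on other members too. Ran, Nup35, Nup54, Tnpo1 and Xpo4 have 1 each by the same criterion, and their values are uncertain to that extent. Gm13461, the copy of Ran, was listed at 153 ± 13.1 RPKM in tip against 63.8 ± 4.78 RPKM in stalk (SD, n = 3), above Ran. With copies added, the fold change was 1.24 for Ran, 0.59 for Nup35, 0.65 for Nup54 and 0.49 for Tnpo1, and the 36 members called higher in tip stayed the same 36. Gm17873, the copy of Xpo4, had no value listed under that symbol, so nothing was added to Xpo4.

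Of the 11 genes of the importin beta and transportin family, which bind cargo or adaptors and pass through the channel, 7 were called higher in tip. The share over all genes was 26.1%. Kpnb1 (importin beta, mm10, chr11:97159714-97187881), the carrier of the importin alpha adaptors, had the highest level of all members as listed. It measured 105, 99.8 and 96.5 RPKM in tip against 56.8, 46.7 and 52.5 RPKM in stalk. The lowest tip library stood well above the highest stalk library. The mean was 100.4 ± 4.21 RPKM in tip against 52.0 ± 5.04 RPKM in stalk (SD, n = 3), a 1.93-fold ratio and a fold change of 0.94 ± 0.10 (SE, limma adjusted p = 0.000135).

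Ipo9, a carrier of histones, and Ipo5 and Ipo7, carriers of ribosomal proteins among other cargo, rose by 0.73, 0.71 and 0.60. Ipo11, Tnpo3, which imports SR splicing factors, and Tnpo1, which imports hnRNP proteins, rose by 0.51, 0.44 and 0.41. Tnpo2, the close relative of Tnpo1, measured 20.2 ± 1.53 RPKM in tip against 19.6 ± 0.72 RPKM in stalk (SD, n = 3) and was not called, with an interval from -0.19 to 0.27. Ipo4, Ipo8 and Ipo13 were not called, with 0.23, 0.18 and -0.07. Exons of Ipo4 share 2583 bases with Gm49378 on the same strand, so its value is uncertain.

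Among the 5 exportins, 4 were called higher in tip, against 26.1% of all genes. Xpo1 (CRM1), the general carrier of proteins with leucine-rich export signals (mm10, chr11:23256041-23298249), measured 47.3, 37.5 and 51.1 RPKM in tip against 27.6, 33.6 and 29.8 RPKM in stalk (0.56 ± 0.14 SE, limma adjusted p = 0.00954). The groups did not overlap, with tip library 2 nearest to the stalk libraries. Xpo4, a carrier of Smad3 and other cargo, had the largest change of the group and the lowest level, with 6.21, 5.67 and 5.25 RPKM in tip against 3.95, 3.38 and 2.81 RPKM in stalk (0.62). Xpo7 and Xpo5, the exporter of microRNA precursors, rose by 0.58 and 0.42. Xpo6, which exports actin with profilin, was not called at 22.6 ± 1.08 RPKM in tip against 23.6 ± 2.41 RPKM in stalk (SD, n = 3), with an interval from -0.30 to 0.19.

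Both genes of the Ran cycle were among the largest changes. Ran (mm10, chr5:129020069-129024323) measured 94.6, 87.5 and 92.7 RPKM in tip against 37.0, 42.9 and 38.4 RPKM in stalk. All its tip libraries lay far above its stalk libraries. The mean was 91.6 ± 3.70 RPKM in tip against 39.4 ± 3.07 RPKM in stalk (SD, n = 3), a 2.32-fold ratio and a fold change of 1.20 ± 0.09 (SE, limma adjusted p = 3.10e-05). Rcc1 (mm10, chr4:132331919-132353605), which sits on chromatin and loads Ran with GTP, measured 37.0, 34.5 and 33.8 RPKM in tip against 14.8, 14.2 and 16.6 RPKM in stalk. This was a 2.31-fold ratio, nearly that of Ran, with a fold change of 1.16 ± 0.10 (SE, limma adjusted p = 5.14e-05). Exons of Rcc1 share 135 bases with the noncoding host gene Snhg3 on the same strand. In GENCODE M21, exons of 18 members overlap those of another gene, including 14 members with an overlap on the opposite strand. Among them are Xpo4 with Gm49361 (332 bases) and Nup188 with Gm28038 (284 bases) on the same strand. Tnpo2 with A230103J11Rik (666 bases) and Tnpo3 with Irf5 (411 bases) overlap on the opposite strand. Values of such members are uncertain to that extent.

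**Figure D4:**
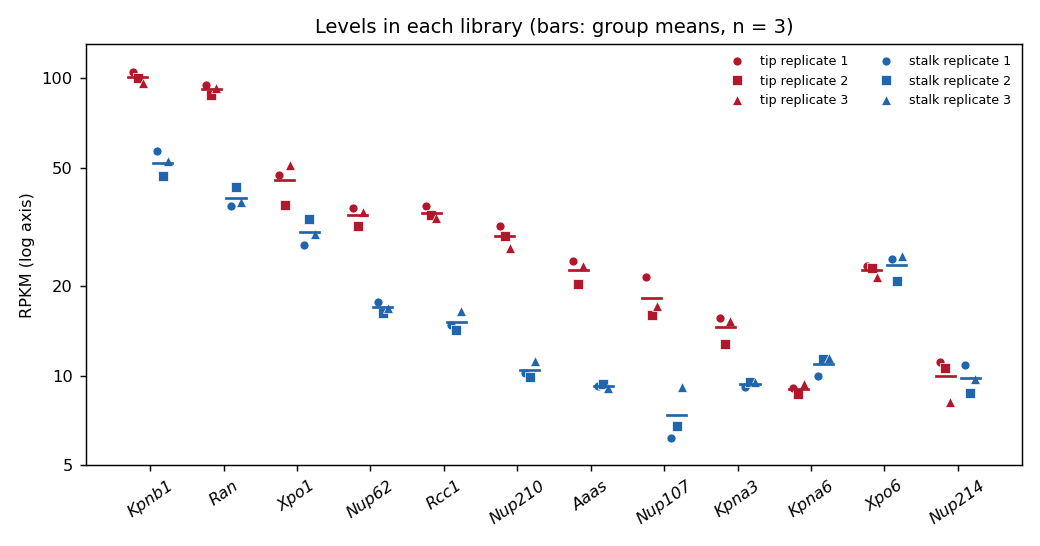
RPKM in each library (log y axis) of 12 members (x axis), with tip in red, stalk in blue, a symbol for each replicate and bars at the group means (n = 3). Tip and stalk points stand apart from Kpnb1 to Kpna3, Kpna6 has its stalk points above its tip points, and the points of Xpo6 and Nup214 mix.

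The tip libraries were not equal across the members. Tip library 1 was the highest of its group in 34 of the 48 members, and tip libraries 2 and 3 were the lowest in 25 and 22. These ranks were not counted over all genes, so whether they are particular to the members is unknown. The median deviation of tip library 1 from its group mean was 0.08 on the log2 scale over the members and 0.01 over all genes. DNA replication genes summed to 858, 696 and 812 RPKM in tip libraries 1 to 3. Any link between these sums and the ranks of the members was not tested. In the stalk group, library 3 was highest in 21 members and library 2 lowest in 21. Without tip library 1, 28 members were called higher in tip, and 0 went the other way, while the share of all genes called higher in tip went from 26.1% to 20.0%.

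Single rows of the deposited table, whose transcript is not named, gave fewer calls. Of 77 member rows whose mean reached 1 RPKM, 34 were called higher in tip, and 0 went the other way. Over all 20279 rows tested, 15.9% were called higher in tip, and the stalk was higher in 13.9%. Among the 17 members with more than 1 tested row, 0 had rows called in both directions, against 34 of 4424 genes (0.769%). Of the 36 members called higher in tip, 6 had no row called: Tpr, Nup88, Tnpo3, Ipo11, Xpo4 and Xpo5. Rows of Ipo4 ranged from -0.08 to 0.34.

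Other genes of the same machinery that the naming rule leaves out were taken from a list. Of 27 tested, 13 were called higher in tip, and 0 went the other way, with a median fold change of 0.39. The largest changes were those of Ranbp1, a helper of GTP hydrolysis by Ran, with 143 ± 19.7 RPKM in tip against 58.0 ± 5.88 RPKM in stalk (SD, n = 3; 1.28), and Nxt1, a partner of the mRNA exporter Nxf1 (0.92). Of 13 tested genes of TREX, the complex that couples transcription to mRNA export, 6 were called higher in tip, and 0 the other way, led by Alyref (0.72) and Ddx39b (0.70). In the nuclear lamina and envelope, which borders the pores, 8 of 15 tested genes were called higher in tip, and the stalk was higher in 2. Lmnb1 and Tmpo rose in tip by 1.49 and 1.36. Lmna, which encodes lamins A and C, was higher in stalk at 65.3 ± 42.7 RPKM in tip against 225 ± 52.2 RPKM in stalk (SD, n = 3; -1.94). Tor1aip2, a partner of torsin, was also higher in stalk (-0.65).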

How the data were processed

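Messenger RNA of 3 tip and 3 stalk samples was sequenced from stranded libraries (Kapa kit), per the labels' protocols. RPKM values were computed by the authors and deposited in 1 table. The tools bcl2fastq 2.17, TopHat2 and Partek and the build mm10 are those in the submitters' processing notes, which give them no order here. The annotation, how values were quantified and whether strand was used are not given in the sources used here. Of 93615 rows, 24545 held question marks in all 6 columns and were left out. The rest were summed by symbol.

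A gene was tested if its mean over the 6 libraries reached 1 RPKM (12532 genes). The test was two-sided, in limma 3.58.1 (R 4.3.3), with log2(RPKM + 1) as the response, group as the term, a mean-variance trend and no block. P-values were adjusted by Benjamini-Hochberg across all tested genes (threshold 0.05). Depth is unknown, so no counting interval is given, and n = 3 per group limits the precision. Coordinates, exon overlaps and copies (blastn 2.17.0) came from GENCODE M21, and start-site windows from RefSeq (GRCm38.p6).

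The members and lists were chosen with earlier results of these data known. Values in every library are given for the called member with the largest change and the member with the highest mean in each role group, for Ran and Rcc1, and for the 3 importin alpha genes with the highest means. Fold changes are given for others called in each group and for those nearest to the threshold, and the 2 largest changes toward each side for other lists. Genes such as Tmem48, Ahctf1, Nupl1, Nupl2, Ranbp2, Eng, Gm10184, Gm13461 and members not called were named after their values were seen. Alternatives changed the pseudocount, filter, scaling, row choice, block, trend, the libraries used and the treatment of copies.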

Additional observations from a re-analysis of the deposited data

How the results depend on the processing

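Of the 36 members called higher in tip, 25 kept the call under all of 16 other settings, 2 (Kpna2 and Xpo4) kept it under the 15 that tested them, being below the minimum mean of 5 RPKM, 9 lost it under at least 1, and 0 changed direction. Those 9 were Nup88 (lost under 10), Nup160 (7), Ipo11, Sec13 and Xpo5 (6 each), Rae1 and Tpr (5 each), and Nup35 and Nup37 (1 each, without tip replicate 1). Leaving out each library in turn gave 28 to 33 members higher in tip, with 20.0% to 24.7% of all genes, against 26.1% in the main fit. Tip replicate 2 and stalk replicate 1 stand apart on the second principal component (9.21% of the variance). Leaving out both gave 32 members and 24.7% of all genes. Scaling by median ratios gave 33 members higher in tip, with 24.0% of all genes, and 1 higher in stalk, Kpna6 (-0.30, limma adjusted p = 0.0352). Fold changes near 0, not called in any of these settings, changed sign. With median ratio scaling, Kpna1 came to -0.0156, Nup214 to -0.0329 and Tnpo2 to -0.0106, and with the row of the highest mean Kpna1 came to -0.0294. Leaving out 1 library at a time, Kpna1 ranged from -0.0307 (without tip replicate 1) to 0.0820 (without tip replicate 3), Nup214 from -0.0603 (without tip replicate 1) to 0.142 (without tip replicate 3), and Tnpo2 from -0.0131 (without tip replicate 2) to 0.0892 (without tip replicate 3). Nup153 passed the threshold without tip replicate 3 (0.44, adjusted p = 0.0328), Nup98 without stalk replicate 1 (0.48, 0.0437) and Nup50 with no filter (0.24, 0.0440); the cause was not tested. Deviations of same-numbered tip and stalk libraries from their group means correlated at -0.30, -0.34 and 0.09 across genes. The highest correlations were those of tip 2 with stalk 1 (0.56), tip 3 with stalk 2 (0.40) and tip 1 with stalk 3 (0.33). Deviations from a group mean are not independent, so these values cannot decide whether any libraries are paired. With the replicate block, which pairs by number, 29 members were called higher in tip, and 0 went the other way. The share of all genes called higher in tip was then 21.7%. RPKM without depth limits what can be said of Kpna2 and other low members.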

Other observations

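Members that share a start region with a neighbour did not share its direction throughout. GENCODE M21 places 7 members head to head with a protein-coding gene, starts within 1000 bases of each other, and 5 of the neighbours were tested. Nup188 was higher in tip (0.71), and Dolk, a dolichol kinase whose start lies 63 bases away, was called higher in stalk (-0.48, limma adjusted p = 0.0332), at 4.32 ± 0.87 RPKM in tip against 6.35 ± 0.42 RPKM in stalk (SD, n = 3). Nup98 was not called (0.26), and Pgap2, 32 bases away, was called higher in stalk (-0.34, adjusted p = 0.0258). Nup88 was higher in tip (0.27), and Rpain, a carrier of the single-strand binding protein RPA, was not called (-0.39, adjusted p = 0.103). Nup37 and Parpbp were both higher in tip (0.65 and 1.10), as were Xpo5 and Polh, a translesion DNA polymerase (0.42 and 0.56). These pairs were looked up after values were seen, and the difference within a pair was not tested.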
